A study of Mus musculus with 6 samples.

Results

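The imprinted growth regulators described here are 9 genes, Peg3, Mest, Plagl1, Cdkn1c, Dlk1, Ndn, Grb10, Phlda2 and Zim1, selected by their gene symbol out of the 49548 genes measured. All 9 had a value, and although the rule is by symbol alone, they were proposed with earlier results of these data known. They were measured by 3′ mRNA sequencing in cancer-associated fibroblasts (CAFs) of mouse colonic adenomas. All mice were C57/BL6 of the genotype Col6a1-cre, Rosa26-mTmG, in which Cre replaces membrane Tomato with GFP, and in all of them adenomas were induced with azoxymethane and dextran sodium sulfate (AOM/DSS), the former a carcinogen and the latter an agent that causes colitis. Cells without the markers CD45, EpCAM, CD31 and Ter119 were sorted from the tumors into GFP+ cells, called Col6a1+ CAFs, and Tomato+ cells, called Col6a1- CAFs, with 3 libraries of each. Each library held tumors pooled from several mice, and GFP marks every cell in which the Col6a1 promoter drove Cre at any time, so it reports the history of a cell as well as its present state. In the gut this Cre is active chiefly in pericytes and in fibroblasts rich in PDGFRα. Mice without AOM/DSS were not analysed here, and the ages of the mice were not given in the labels.

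Genomic imprinting is the expression of a gene mainly from the copy inherited from one parent. Imprinted genes lie in clusters, in each of which a DNA region methylated in the egg or the sperm sets which parental copy of the neighbouring genes is used. Many paternally expressed genes favour fetal growth and many maternally expressed genes restrain it, and several of these genes are used again after birth in stem cells, mesenchyme and regenerating tissue. Of the members, Peg3, Mest, Plagl1, Dlk1 and Ndn are paternally expressed, and Cdkn1c, Grb10, Phlda2 and Zim1 are maternally expressed in most tissues studied. The counts here were made per gene and do not separate the parental copies, so they give the amount of RNA and not the imprint.

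The libraries summed to between 3039152 and 3425249 normalized counts each, and 14530 to 20511 genes had at least 1, the fewest in Col6a1+ replicate 1. Col6a1, the gene whose promoter drove Cre, had 861, 1287 and 1941 normalized counts in the Col6a1+ libraries and 182, 321 and 102 in the Col6a1- libraries, for a log2 fold change of 2.82 (limma, adjusted p = 0.00613), with the higher level in the libraries labelled GFP+. Markers of pericytes and other mural cells summed to 51441 to 104136 in Col6a1+ and 1501 to 3993 in Col6a1- CAFs, with 9 of 10 called higher. Pan-fibroblast markers summed to 48940 to 51474 and 10050 to 17708, with 7 of 10 higher. Markers of epithelial cells, which the sort was set to remove, summed to 5263 to 5545 in Col6a1+ and 18681 to 30172 in Col6a1- CAFs, with 8 of 10 called lower in Col6a1+ CAFs. Immune markers summed to 53 to 74 and 320 to 550, with 1 of 11 rows called lower, S100a8. Endothelial markers summed to 132 to 351 and 162 to 371, with 9 of 10 log2 fold changes negative (median -1.59) and 1 gene, Tie1, called higher, at 220, 56 and 152 against 1, 7 and 21. Glial markers summed to 161 to 460 and 70 to 131, with 6 of 8 log2 fold changes positive. Of these, 1 was called higher, Fabp7, at 367, 88 and 278 against 0 in each Col6a1- library. Erythroid markers summed to 110 to 1713 and 281 to 482, with 0 of 6 called. In these sorted bulk samples, fewer cells of a type and less RNA per cell cannot be told apart.

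Of the 9 members, 1 passed the test between Col6a1+ and Col6a1- CAFs, namely Cdkn1c, which was lower in Col6a1+ CAFs. No member passed in the other direction in the limma test, and Dlk1, with a higher value in each Col6a1+ library than in any Col6a1- library, had an unadjusted p of 0.0135. A gene is called here at a Benjamini-Hochberg adjusted p under 0.05 in the limma fit without a block on replicate number. Of the 26402 genes tested, 4.62% were called in either direction, 2.66% higher and 1.96% lower in Col6a1+ CAFs. With the block, 0 of these genes were called. The libraries of the groups did not overlap for 2 members, Cdkn1c in the lower direction and Dlk1 in the higher, against 19.5% of all genes tested in either direction, 7.91% higher and 11.6% lower. With 1 member in each direction, nothing is read from these shares about the 9 genes. The median log2 fold change of the members was -0.38, beside -0.27 over all genes tested, and a log2 fold change is given here as Col6a1+ minus Col6a1- on the scale of log2(normalized count + 1). Only 6 of the 9 members had a mean of at least 10 normalized counts, and the other 3, Mest, Ndn and Zim1, were close to the limit of detection.

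**Figure D1:**
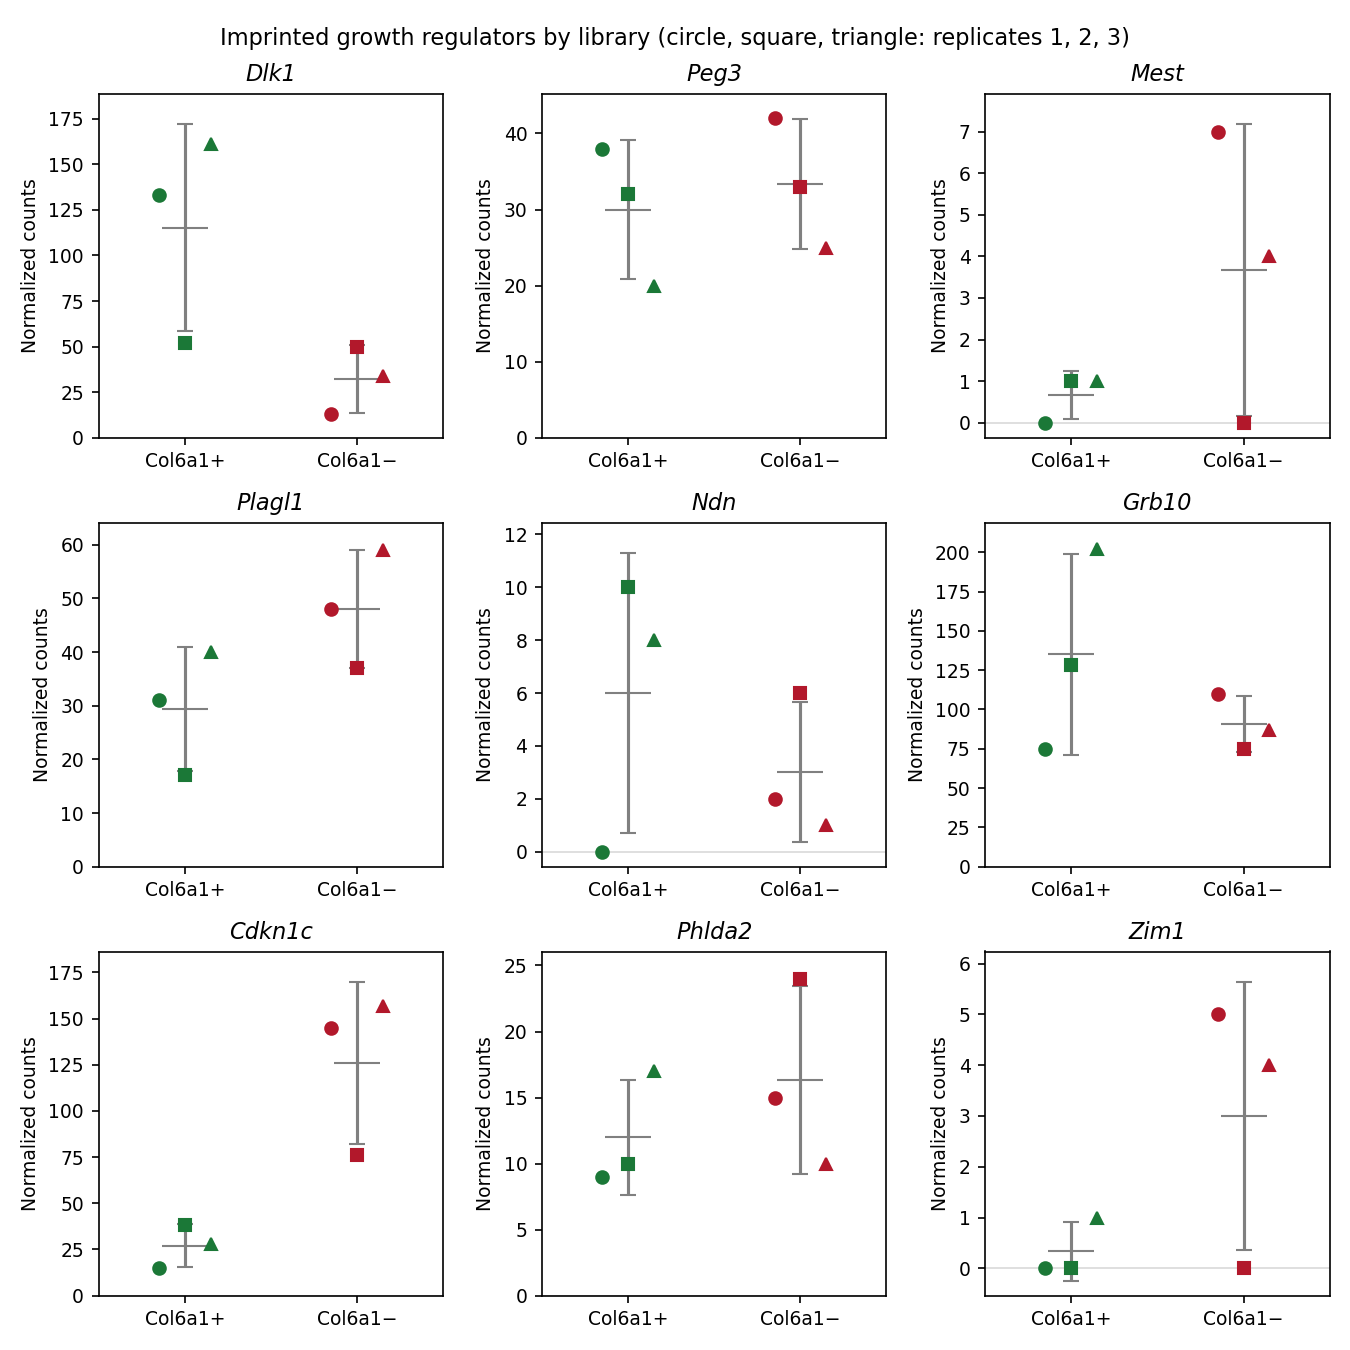
Normalized counts of the 9 imprinted growth regulators (vertical axes, linear) in the 3 Col6a1+ libraries (green) and the 3 Col6a1- libraries (red), with circles, squares and triangles for replicates 1, 2 and 3 and gray bars for the mean ± SD (n = 3). The groups are separated for Cdkn1c, with 15 to 38 against 76 to 157, and narrowly for Dlk1, with 52 to 161 against 13 to 50, while the points of the other 7 genes overlap.

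Cdkn1c encodes the cyclin-dependent kinase inhibitor p57, which holds cells out of the cell cycle and restrains fetal growth. The gene (ENSMUSG00000037664, mm10 chr7:143458339-143461050, minus strand) had 15, 38 and 28 normalized counts in Col6a1+ CAFs and 145, 76 and 157 in Col6a1- CAFs. Every Col6a1- library was therefore above every Col6a1+ library, with the gap smallest between the replicates numbered 2. The means were 27.0 ± 11.5 and 126 ± 43.7 (SD, n = 3), 4.67-fold lower in Col6a1+ CAFs. The log2 fold change was -2.21 (SE 0.52, 95% interval -3.35 to -1.06), with an adjusted p of 0.0378 by limma. In a fit blocked on replicate number, the adjusted p of Cdkn1c was 0.152 over all genes and 0.0322 when only genes averaging at least 10 normalized counts were fitted, of which 13.7% were called. The call was lost when any 1 of the 6 libraries was left out, with limma adjusted p-values from 0.104 to 0.251 and log2 fold changes from -2.53 to -1.85. Without any Col6a1+ library, or without Col6a1- replicate 1, no gene at all was called, so those losses are not particular to Cdkn1c. Within replicate numbers the differences were -3.19, -0.98 and -2.45 on the log2 scale.

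The epithelial marker sums given above were 4.38-fold higher and the immune sums 6.23-fold higher in Col6a1- CAFs, the direction in which Cdkn1c was higher. Within the Col6a1- group the order of the epithelial sum was different. Replicate 2, with the most epithelial marker counts (30172), had the fewest of Cdkn1c (76), and replicate 1, with the least (18681), had 145. Krt18 (1754, 1921 and 2234 in replicates 1, 2 and 3) and Lgr5 (75, 74 and 133) were highest in replicate 3, as was Cdkn1c (157). The other epithelial markers were highest in replicate 2, and Cdh1 gave the most counts to the sum. Replicate 2 also had the largest immune marker sum (550), to which S100a8 alone gave 387, against 211 and 167 in replicates 1 and 3. In Col6a1+ CAFs S100a8 had 23, 17 and 29, so the immune sums of the Col6a1- libraries rest largely on this gene. Of the 11 immune rows, 8 had a negative log2 fold change and 5 did not overlap, lower in Col6a1+ CAFs. Ptprc, which encodes the sorted-out CD45, had 0, 2 and 0 normalized counts against 7, 8 and 3, and Cd74 of antigen-presenting cells had 9, 18 and 3 against 89, 96 and 30, while Cd3e of T cells and Cd79a of B cells had at most 3 in any library. Adventitial fibroblast markers summed to 1548 to 2974 in Col6a1+ and 3393 to 5810 in Col6a1- CAFs, with 2 of 8 called lower. Markers of proliferation summed to 802 to 1015 in Col6a1+ and 1011 to 1450 in Col6a1- CAFs, and 0 of the 10 passed the limma test. Of these 10, 8 had a negative log2 fold change (median -0.70). The groups did not overlap for 3, lower in Col6a1+ CAFs, beside 11.6% of all genes tested. In the blocked limma fit of genes averaging at least 10 normalized counts, 1 was called, Birc5 (adjusted p = 0.0484), beside 13.7% of all genes in that fit. The part of these cell types in the Cdkn1c difference was not tested.

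Cdkn1c lies in the Kcnq1 domain of distal chromosome 7, whose maternally expressed genes are silenced on the paternal copy under the control of the antisense RNA Kcnq1ot1. Of the 8 genes of this domain with counts, 7 had a negative log2 fold change and 4 were called lower in Col6a1+ CAFs, with a median of -1.34. These 4 were Cdkn1c and its neighbours Slc22a18, Kcnq1 and Ascl2. Over all genes tested, 15514 of 26402 log2 fold changes were negative and 1.96% were called lower. The genes of the domain were assigned after values were seen, so the tally is a description only. Slc22a18, a putative organic cation transporter that starts 12.7 kb from Cdkn1c, had 15, 38 and 23 normalized counts in Col6a1+ and 144, 168 and 120 in Col6a1- CAFs. Its log2 fold change was -2.54 (SE 0.48, limma adjusted p = 0.0137, and 0.0755 with the block). Kcnq1, a voltage-gated potassium channel of epithelia and heart, had 14, 6 and 15 in Col6a1+ and 145, 58 and 54 in Col6a1- CAFs, for a log2 fold change of -2.71 (SE 0.64, adjusted p = 0.0399, and 0.107 with the block). The groups did not overlap for either gene.

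Ascl2, a transcription factor known from intestinal stem cells and from the placenta, had 0, 3 and 0 normalized counts in Col6a1+ CAFs and 36, 24 and 21 in Col6a1- CAFs. The sums were 3 and 81, a ratio of 27 with a 95% counting interval of 8.92 to 134, which covers counting error only (limma adjusted p = 0.0437, and 0.119 with the block). Nearly all Ascl2 counts thus lay in the Col6a1- libraries, where the epithelial marker sums were also higher. Kcnq1ot1 was listed at 0 in all 6 libraries. The other 3 genes of the domain beside Phlda2 were not called, with log2 fold changes of -0.21 for Tssc4, -0.48 for Nap1l4, a nucleosome assembly protein, and 0.52 for Osbpl5, an oxysterol-binding protein.

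Phlda2, a pleckstrin homology domain protein that limits placental growth, starts 42.1 kb from Cdkn1c (ENSMUSG00000010760, chr7:143501545-143503150, minus strand). It had 9, 10 and 17 normalized counts in Col6a1+ CAFs and 15, 24 and 10 in Col6a1- CAFs, and the ranges overlapped. The means were 12 ± 4.36 and 16.3 ± 7.09 (SD, n = 3). The log2 fold change of -0.38 had a 95% interval of -2.11 to 1.34 (limma adjusted p = 0.796), and changes within it were not detectable at this depth. The difference between the fold changes of Phlda2 and Cdkn1c was not tested.

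Dlk1 encodes delta-like 1, a transmembrane protein related to Notch ligands that keeps preadipocytes and other mesenchymal progenitors from differentiating. The gene (ENSMUSG00000040856, chr12:109452823-109463336, plus strand) had 133, 52 and 161 normalized counts in Col6a1+ CAFs and 13, 50 and 34 in Col6a1- CAFs. Col6a1+ replicates 1 and 3 stood well above all Col6a1- libraries, while the replicates numbered 2 had nearly the same count. The means were 115 ± 56.6 and 32.3 ± 18.6 (SD, n = 3), a ratio of 3.57. The log2 fold change was 1.84 (SE 0.62, 95% interval 0.47 to 3.22), and the limma adjusted p of 0.144 did not pass. It passed under none of the alternative settings, with adjusted p-values from 0.0738 to 0.554. Within replicate numbers the differences were 3.26, 0.06 and 2.21 on the log2 scale.

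Downstream of Dlk1, on the same strand, lie the maternally expressed long noncoding RNAs Meg3, Rian and Mirg, which the same methylated region controls and which host small RNAs. All 3 were called higher in Col6a1+ CAFs, and all 5 genes of the Dlk1-Dio3 domain with counts had a positive log2 fold change, with a median of 4.39. Of these, Dio3 had counts in only 1 library. Over all genes tested, 10884 of 26402 log2 fold changes were positive and 2.66% were called higher. The genes of this domain too were assigned after values were seen, so the tally is a description only. Meg3, which starts 88.2 kb from Dlk1, had 5836, 3934 and 5035 normalized counts in Col6a1+ and 276, 330 and 135 in Col6a1- CAFs. Its means were 4935 ± 955 and 247 ± 101 (SD, n = 3), a log2 fold change of 4.39 (SE 0.36, limma adjusted p = 3.56e-04, and 0.0612 with the block). This separation was much wider than that of Dlk1, although the difference between the fold changes was not tested.

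Rian, at 151.1 kb, had 185, 83 and 88 normalized counts in Col6a1+ and 4, 0 and 5 in Col6a1- CAFs, for a log2 fold change of 5.17 (SE 0.86, limma adjusted p = 0.00842, and 0.0686 with the block). Mirg, at 276.9 kb, had 359, 148 and 89 in Col6a1+ and 4, 12 and 0 in Col6a1- CAFs, for a log2 fold change of 5.39 (SE 0.95, adjusted p = 0.0108, and 0.0717 with the block). In Col6a1- libraries both RNAs were near the limit of detection, and single libraries moved the fold. Without Col6a1- replicate 2 the log2 fold change was 4.35 for Rian and 6.24 for Mirg, and without Col6a1- replicate 3 it was 4.39 for Mirg. Counts of Meg3 share sequence on the same strand with the microRNA gene Mir1906-1, which was listed at 1425, 1608 and 1970 in Col6a1+ and 87, 128 and 53 in Col6a1- CAFs, so how reads were divided between the pair is uncertain. The retrotransposon-derived Rtl1 was listed at 0 in all libraries, and the deiodinase gene Dio3 had 3 counts in 1 Col6a1+ library and 0 in the rest. The mural marker sums were 26.0-fold higher in Col6a1+ CAFs, and within that group replicate 2, with the lowest mural sum (51441), also had the lowest Dlk1 (52) and Meg3 (3934), while Mirg was lowest in replicate 3 (89). Within the Col6a1- group replicate 1 had the highest mural sum (3993) and the lowest Dlk1 (13). Replicate 2 had more than replicate 3 of both the mural sum (3107 and 1501) and Dlk1 (50 and 34). In that group Acta2, Mcam, Notch3 and Abcc9 were highest in replicate 1 and Kcnj8 in replicate 3. Rgs5, Cspg4, Des, Cnn1 and Myh11 were highest in replicate 2, as was Dlk1. Acta2 (1701) and Mcam (1280) gave the most counts to the sum of replicate 1. The part of the mural cells in these values was not tested.

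**Figure D2:**
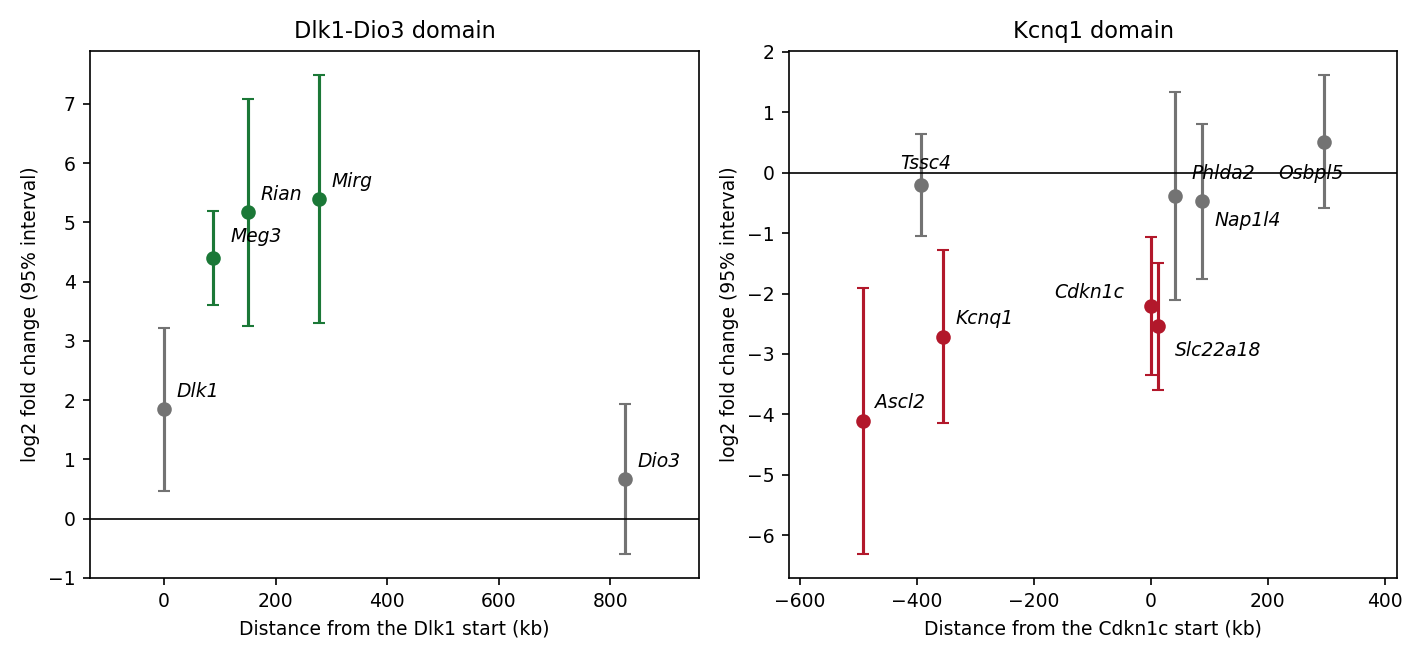
Log2 fold change, Col6a1+ minus Col6a1- CAFs, with its 95% interval (vertical axes) against the distance of each gene's start from the start of Dlk1 or Cdkn1c in kb (horizontal axes). Green and red mark genes called higher and lower and gray marks genes not called, so that Meg3, Rian and Mirg sit between 4.39 and 5.39 to the right of Dlk1 (1.84), and Slc22a18 (-2.54) sits beside Cdkn1c (-2.21) while Phlda2 (-0.38) does not pass.

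Promoter windows were read for 8 of the 9 members (11 windows, RefSeq, GRCm38.p6), each of 300 bases, from 250 before to 50 after the annotated start. Cdkn1c had no entry. Windows are shown for Dlk1 and Meg3, the pair at one end of the Dlk1-Dio3 domain, for Slc22a18, the called neighbour of Cdkn1c, and for Peg3, which did not pass the test, with each CpG, the dinucleotide that is methylated at imprinting control regions, in capitals. Each is written 5′ to 3′ on the strand of its gene, at chr12:109452573-109452872 (plus) for Dlk1, chr12:109540746-109541045 (plus) for Meg3, chr7:143473539-143473838 (plus) for Slc22a18 and chr7:6730370-6730669 (minus) for Peg3.
Dlk1: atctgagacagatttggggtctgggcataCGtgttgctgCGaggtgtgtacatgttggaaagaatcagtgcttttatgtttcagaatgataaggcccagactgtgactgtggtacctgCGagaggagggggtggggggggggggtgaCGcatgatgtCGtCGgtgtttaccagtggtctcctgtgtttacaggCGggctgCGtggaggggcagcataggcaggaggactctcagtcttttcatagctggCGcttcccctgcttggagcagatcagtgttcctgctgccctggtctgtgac
Meg3: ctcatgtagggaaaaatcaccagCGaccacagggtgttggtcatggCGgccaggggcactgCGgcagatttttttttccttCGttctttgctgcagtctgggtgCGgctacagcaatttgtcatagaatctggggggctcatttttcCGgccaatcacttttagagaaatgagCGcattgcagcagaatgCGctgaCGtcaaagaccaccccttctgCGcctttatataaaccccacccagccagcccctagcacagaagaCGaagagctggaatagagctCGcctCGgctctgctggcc
Slc22a18: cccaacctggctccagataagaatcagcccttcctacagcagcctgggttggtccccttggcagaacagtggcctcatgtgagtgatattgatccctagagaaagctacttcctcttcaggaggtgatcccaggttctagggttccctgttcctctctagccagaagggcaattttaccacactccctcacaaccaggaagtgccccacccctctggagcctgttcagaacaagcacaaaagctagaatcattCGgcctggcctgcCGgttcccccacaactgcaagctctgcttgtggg
Peg3: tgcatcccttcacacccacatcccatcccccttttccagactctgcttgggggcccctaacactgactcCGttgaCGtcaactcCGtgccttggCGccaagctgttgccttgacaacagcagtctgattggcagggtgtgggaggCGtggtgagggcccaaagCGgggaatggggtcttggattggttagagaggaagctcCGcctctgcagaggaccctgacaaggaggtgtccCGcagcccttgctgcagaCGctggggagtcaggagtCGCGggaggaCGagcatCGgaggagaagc
The windows held 9 CpGs for Dlk1, 13 for Meg3, 2 for Slc22a18 and 13 for Peg3, against a median of 7 over 32851 windows of all genes, so the window of Slc22a18 was poor in CpG and the others were not. Of the other members, Plagl1 and Phlda2 had 26 each, Zim1 had 20, Ndn had 11, and the starts of Mest and Grb10 differed, with 8 and 17 for Mest and 9 and 45 for Grb10. The letters TATAAA, searched on both strands, occurred in the window of Meg3, where the matches on opposite strands overlap, and in that of Phlda2 among the members, and in 13.6% of all windows. No methylation was measured in these cells.

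Peg3 encodes a zinc finger protein of stem and progenitor cells that is also linked to cell death and to maternal behaviour. The gene (ENSMUSG00000002265, chr7:6703892-6730431, minus strand) had 38, 32 and 20 normalized counts in Col6a1+ CAFs and 42, 33 and 25 in Col6a1- CAFs. In both groups replicate 1 was highest and replicate 3 lowest, and the ranges overlapped almost completely. The means were 30.0 ± 9.17 and 33.3 ± 8.5 (SD, n = 3), with a log2 fold change of -0.16 (SE 0.56, 95% interval -1.41 to 1.08, limma adjusted p = 0.888). The sign turned positive without Col6a1+ replicate 3 (0.0935) and without Col6a1- replicate 1 (0.0134).

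Zim1, a maternally expressed zinc finger gene, starts 34 kb from Peg3 on the same strand (ENSMUSG00000002266, chr7:6671269-6696450). It had 0, 0 and 1 normalized counts in Col6a1+ CAFs and 5, 0 and 4 in Col6a1- CAFs. The sums of 1 and 9 give a ratio of 9 with a 95% counting interval of 1.25 to 394. This interval takes normalized counts as reads and leaves out the spread between libraries, so by itself it cannot establish a difference between the groups. The limma test did not pass (adjusted p = 0.495). Usp29, a paternally expressed ubiquitin protease whose start lies 147 bases from that of Peg3 on the other strand, had 0, 1 and 3 counts in Col6a1+ and 0, 2 and 1 in Col6a1- CAFs, and Zim3 had 0 or 1 in each library. Of the 4 genes of the Peg3 domain, then, only Peg3 was well above the limit of detection in both groups, and none was called.

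Plagl1 encodes a zinc finger factor that can arrest the cell cycle and is known as a regulator of other imprinted genes. The gene (ENSMUSG00000019817, chr10:13060504-13131694, plus strand) had 31, 17 and 40 normalized counts in Col6a1+ CAFs and 48, 37 and 59 in Col6a1- CAFs. The Col6a1- library was above the Col6a1+ library of the same number in each case, but 1 Col6a1+ library exceeded the lowest Col6a1- library. The means were 29.3 ± 11.6 and 48.0 ± 11 (SD, n = 3). The log2 fold change of -0.75 (SE 0.55, 95% interval -1.96 to 0.46) did not pass the limma test (adjusted p = 0.578, and 0.423 with the block).

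Grb10 encodes an adaptor that binds the insulin and IGF1 receptors and dampens their signal. The gene (ENSMUSG00000020176, chr11:11930508-12038683, minus strand) had 75, 128 and 202 normalized counts in Col6a1+ CAFs and 110, 75 and 87 in Col6a1- CAFs. Col6a1+ replicates 2 and 3 were above all Col6a1- libraries, while Col6a1+ replicate 1 tied with the lowest of them. The means were 135 ± 63.8 and 90.7 ± 17.8 (SD, n = 3), a log2 fold change of 0.47 (SE 0.44, 95% interval -0.49 to 1.44, limma adjusted p = 0.636). Its neighbour Ddc, the decarboxylase that makes dopamine and serotonin and is imprinted in some tissues, had 48, 66 and 31 in Col6a1+ and 244, 267 and 151 in Col6a1- CAFs and was called lower (log2 fold change -2.19, SE 0.42, adjusted p = 0.0164, and 0.0629 with the block). Grb10 and Ddc thus had fold changes of opposite sign, a difference that was not tested.

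Mest, an enzyme of the alpha/beta hydrolase fold expressed in mesoderm and in expanding fat tissue, was near the limit of detection (ENSMUSG00000051855, chr6:30723547-30748465, plus strand). It had 0, 1 and 1 normalized counts in Col6a1+ CAFs and 7, 0 and 4 in Col6a1- CAFs. The sums of 2 and 11 give a ratio of 5.5 with a 95% counting interval of 1.20 to 51.1. That interval too takes normalized counts as reads and leaves out the spread between libraries, and the limma adjusted p was 0.603. Mest and the coatomer gene Copg2, on the opposite strand, overlap by 912 bases at their 3′ ends, and the strand setting of the counting is not given in the sources used here, so their reads cannot be told apart in that stretch. Copg2 had 46, 35 and 25 in Col6a1+ and 47, 80 and 55 in Col6a1- CAFs, for a log2 fold change of -0.77 (adjusted p = 0.508).

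Ndn encodes necdin, a MAGE family protein of postmitotic neurons and muscle that binds E2F1 and p53. The gene (ENSMUSG00000033585, chr7:62346569-62350262, plus strand) had 0, 10 and 8 normalized counts in Col6a1+ CAFs and 2, 6 and 1 in Col6a1- CAFs. Col6a1+ replicates 2 and 3 were above all Col6a1- libraries, while the only 0 was in Col6a1+ replicate 1, the library with the fewest genes detected. The log2 fold change of 0.41 had a 95% interval of -2.15 to 2.97 (limma adjusted p = 0.863). In the Snrpn domain around it, Atp10a, a phospholipid transporter that lies 3690.4 kb away, was called lower, with 36, 47 and 40 against 205, 111 and 145 (log2 fold change -1.84, SE 0.41, adjusted p = 0.0300, and 0.115 with the block). Magel2 was listed at 0 in all libraries. Snrpn, a splicing protein gene whose counts are shared with an overlapping gene model, had a log2 fold change of 0.57, and Ube3a, a ubiquitin ligase, had 0.24. Neither was called.

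**Figure D3:**
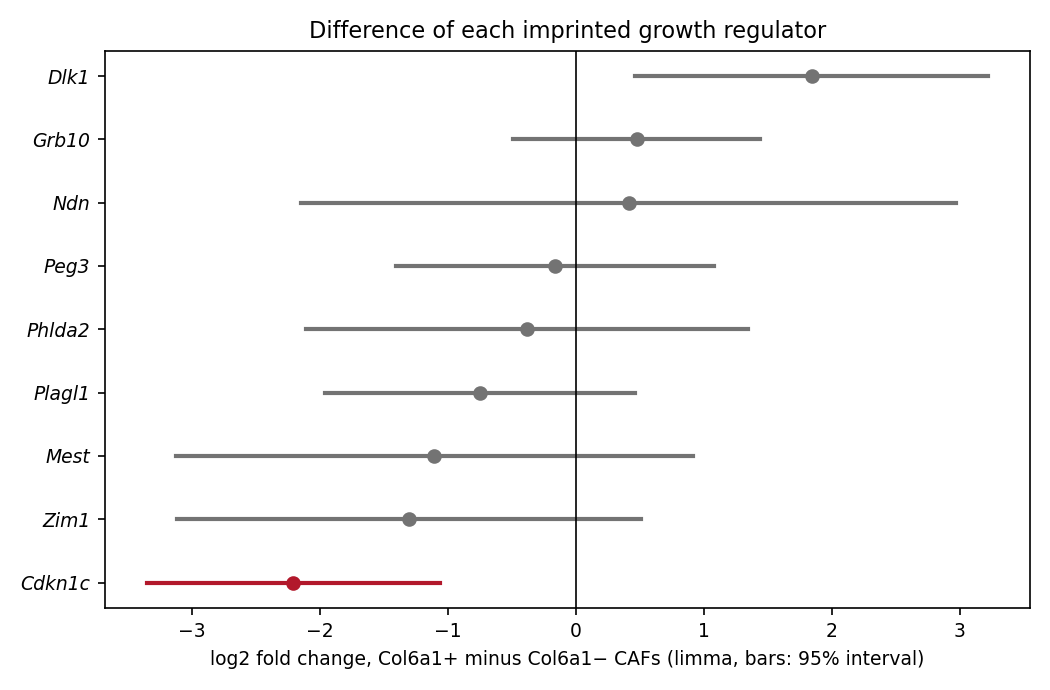
Log2 fold change, Col6a1+ minus Col6a1- CAFs (horizontal axis), with its 95% interval for each of the 9 members (vertical axis), from the limma fit over 26402 genes with 3 libraries a group. Dlk1 (1.84) and Cdkn1c (-2.21) have intervals that exclude 0, and of these only Cdkn1c passed after adjustment over all genes, while the intervals of the other 7 include 0.

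Beyond the members, 45 other imprinted genes could be tested of 54 listed. Of these, 6 were called higher and 6 lower in Col6a1+ CAFs, beside 2.66% and 1.96% of all genes tested. Their log2 fold changes had a median of 0.05. As classed in the lists used here, paternally expressed genes numbered 2 higher and 1 lower of 19, and maternally expressed genes 4 higher and 5 lower of 26. The latter count includes Ddc, which is imprinted only in some tissues and whose parental class is uncertain here. With or without Ddc, each parental class held calls in both directions. Igf2, a fetal growth factor, had 104, 69 and 168 normalized counts in Col6a1+ and 34, 17 and 13 in Col6a1- CAFs (log2 fold change 2.38, SE 0.55, limma adjusted p = 0.0369, and 0.132 with the block). Igf2r, the receptor that clears IGF2, had 597, 337 and 596 against 220, 131 and 176 (log2 fold change 1.52, SE 0.35, adjusted p = 0.0352, and 0.0719 with the block). Ligand and clearance receptor were therefore both higher in Col6a1+ CAFs. Reads of Igf2r cannot be told apart from those of Airn, its antisense RNA, where the pair overlap, and Airn was listed at 35 to 96 counts in Col6a1+ and 5 to 19 in Col6a1- CAFs. H19, the maternally expressed noncoding neighbour of Igf2, had 0, 18 and 8 against 46, 29 and 40, and did not pass (log2 fold change -2.80, adjusted p = 0.211).

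The other called genes were Sgce and Slc38a4, besides Meg3, Rian, Mirg, Slc22a18, Kcnq1, Ascl2, Ddc and Atp10a described above. Sgce, epsilon-sarcoglycan, had 494, 240 and 354 in Col6a1+ and 117, 86 and 15 in Col6a1- CAFs (log2 fold change 2.67, SE 0.67, limma adjusted p = 0.0492, and 0.153 with the block). Slc38a4, an amino acid transporter, had 0, 10 and 12 in Col6a1+ and 92, 66 and 87 in Col6a1- CAFs (log2 fold change -3.97, SE 0.97, adjusted p = 0.0463, and 0.155 with the block). Both separated the groups completely. The log2 fold change of Slc38a4 was -2.77 without Col6a1+ replicate 1 and -4.63 without replicate 3, and that of Sgce was 1.78 without Col6a1- replicate 3. With the replicate block, 0 of the 9 members and 0 of the 45 other imprinted genes were called, as were 0 of all genes by limma, while 4418 genes had an unadjusted p under 0.05 in that fit and 4234 in the fit without the block. When the blocked fit was limited to genes averaging at least 10 normalized counts, 1 of 6 members and 12 of 30 other imprinted genes were called. Of all 13515 genes in that fit, 13.7% were called.

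Paralogues of the members, tested in 11 of 12 cases, included 1 called gene, beside 4.62% of all genes tested. This was Grb7, an adaptor of the Grb10 family that binds receptor tyrosine kinases. It had 0, 14 and 20 normalized counts in Col6a1+ and 326, 215 and 216 in Col6a1- CAFs (log2 fold change -5.19, SE 0.99, limma adjusted p = 0.0149, and 0.122 with the block). Without Col6a1+ replicate 1, the library with no Grb7 counts, its log2 fold change was -3.81, and without replicate 3 of that group it was -6.00. Cdkn1a and Cdkn1b, which encode the p21 and p27 inhibitors of the same family as p57, were not called. Cdkn1a had a log2 fold change of -0.79 (adjusted p = 0.452). Cdkn1b had one of 0.84 (adjusted p = 0.279), positive where that of Cdkn1c was negative.

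Binding partners and targets of the members were 20 genes of insulin and IGF signalling, the cyclin-dependent kinases, Notch and p53. They included 1 called gene, beside 4.62% of all genes tested. This was Notch3, a receptor of pericytes and smooth muscle that is also on the list of mural markers. It had 4826, 3159 and 5036 in Col6a1+ and 141, 75 and 43 in Col6a1- CAFs (log2 fold change 5.77, SE 0.42, limma adjusted p = 1.97e-04, and 0.0612 with the block). Notch1 and Notch2, which Dlk1 is also reported to contact, had log2 fold changes of 0.90 and 1.32 and did not pass. Igf1r and Insr, the receptors that Grb10 binds, had log2 fold changes of 1.24 and -0.81, and neither passed. In the blocked limma fit of genes averaging at least 10 normalized counts, 3 of 20 partners were called. They were Notch3, Igf1r (adjusted p = 0.0306) and the kinase gene Cdk6 (0.0438). Of 10 paralogues in that fit 2 were called, Grb7 and Magee1 (0.0458), and of all its genes 13.7%.

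**Figure D4:**
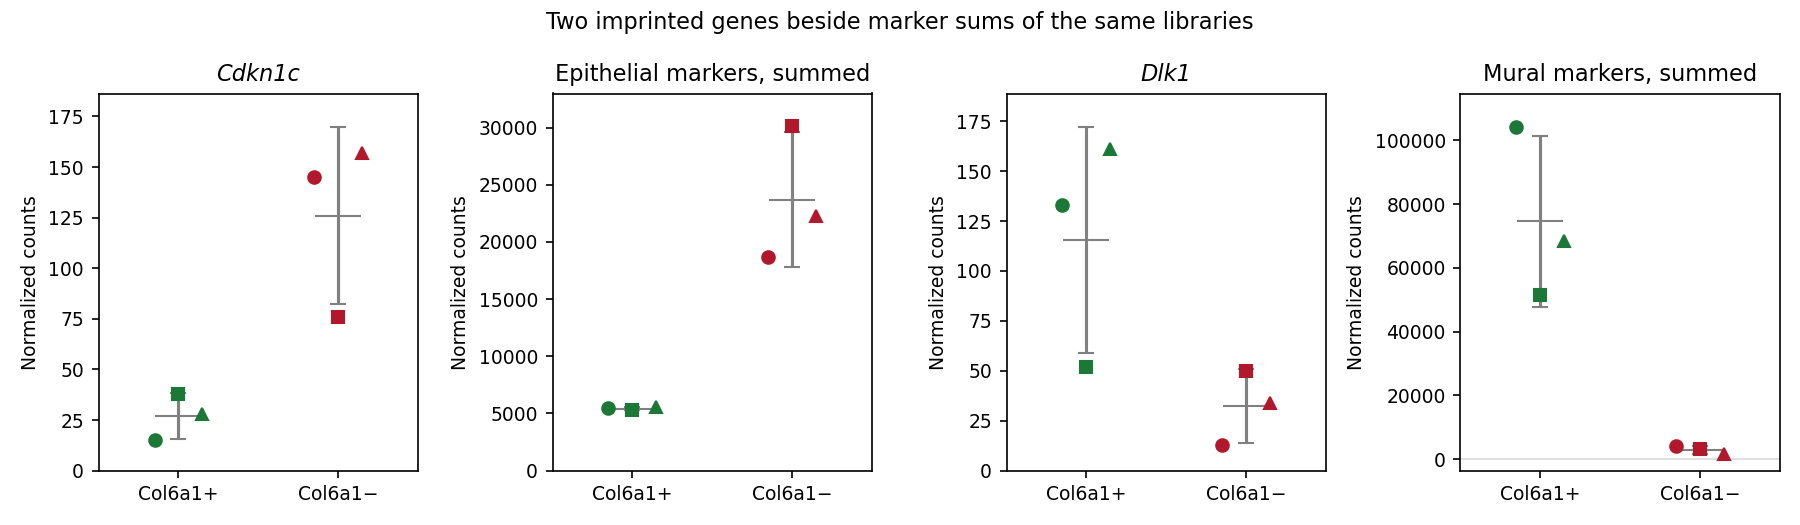
Normalized counts (vertical axes, linear) of Cdkn1c beside the sum of 10 epithelial markers, and of Dlk1 beside the sum of 10 mural markers, in the 3 Col6a1+ (green) and 3 Col6a1- (red) libraries, with circles, squares and triangles for replicates 1, 2 and 3 and gray bars for the mean ± SD. In Col6a1- CAFs replicate 2 has the most epithelial marker counts (30172) and the fewest of Cdkn1c (76), though Krt18 and Lgr5 are highest in replicate 3. For Dlk1 the lowest library is the one with the lowest mural sum in Col6a1+ CAFs (replicate 2, 52 and 51441). In Col6a1- CAFs it is the one with the highest (replicate 1, 13 and 3993). There Rgs5, Cspg4, Des, Cnn1 and Myh11 are highest in replicate 2, as is Dlk1, and Kcnj8 in replicate 3. The part of these cell types was not tested.

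The genes most like each well-measured member were found by the root mean square difference of their centred log2 profiles over the 6 libraries, among 13515 genes with a mean of at least 10. Closest to Cdkn1c were Cdkn2b (0.162), which encodes the p15 inhibitor of cyclin-dependent kinases, Stmn1 (0.169), a microtubule-destabilising protein, and the histone gene Hist3h2a (0.211). Cdkn2b had 9, 26 and 19 normalized counts in Col6a1+ and 113, 60 and 138 in Col6a1- CAFs, the order of the libraries seen for Cdkn1c. The closest to Dlk1, Gm26797 (0.344), Thada (0.371) and Bop1 (0.381), were farther off. For Peg3 the nearest were Ubr7 (0.0662), Rnf114 (0.0677) and Me1 (0.0844), and for Plagl1 they were Nudcd1 (0.116), Nfx1 (0.123) and Cryz (0.147). Grb10 was nearest to Slc45a4 (0.107), Mllt6 (0.108) and Ifitm1 (0.147), and Phlda2 to Rpl7a-ps11 (0.14), Pnp (0.15) and Cyc1 (0.180). These likenesses rest on 6 libraries and were chosen among many genes, so they describe the profiles only.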

How the data were processed

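Sorted CAFs were sequenced as QuantSeq 3′ mRNA libraries on an Ion Proton, 3 of Col6a1+ and 3 of Col6a1- cells, grouped by their labels. Per the submitters' processing notes, the authors used TopHat2, Bowtie2 and DESeq with mm10. The values used are those the authors deposited, log2 of the DESeq-normalized count plus 1, for 49548 genes. Reversing the log gave whole normalized counts in 100.0% of values (tolerance 0.01). Unnormalized depth is not given in the sources used here. Another 6 columns of per-sample values were not used, nor were the authors' p-values, false discovery rates and fold changes.

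The 26402 genes with at least 1 normalized count in all were tested with limma 3.58.1 (R 4.3.3, lmFit, then eBayes with trend, Benjamini-Hochberg adjustment), with intervals from the same fit, after the code was tested on simulated data. Libraries are pools of mice, and p-values measure the spread between these 3 pools a group. Every member was named, as were called genes of the other lists (at most 10 a list), neighbours in the same domain, and the 3 genes nearest in profile. Members and lists were chosen with earlier results of these data known, and the domain assignment and the 4 printed promoters were chosen after values were seen. Same-numbered libraries deviated together, with correlations of 0.245, 0.125 and 0.144 over 13515 genes. Different numbers gave -0.245 to 0.150, where Col6a1+ replicate 2 with Col6a1- replicate 3 exceeded the values of 0.125 and 0.144. By the rule that each be over 0.1 the numbers were read as pairs, from the data and not from a label, so the pairing is uncertain. Calls come from the fit without these pairs, and the blocked fit is given beside it. Alternatives changed the scaling, the low-count filter, the pseudocount, the weighting and the block, and left out each library. Ratios of sums carry 95% intervals for counting error only, with normalized counts taken as reads, so they are approximate. Figures used Matplotlib 3.10.9.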

Additional observations from a re-analysis of the deposited data

How the results depend on the processing

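Among the members the direction held under all settings that gave a value, except for Peg3 and Ndn, whose log2 fold changes went from -0.35 to 0.0935 and from -0.21 to 1.52 when single libraries were left out, and Ndn at -0.26 with a pseudocount of 0.1. The number of members called higher was 0 throughout, including 0 under leave-one-out. The number called lower (1, Cdkn1c) was 0 with no filter on low counts, 0 with a pseudocount of 0.1, 0 with the replicate block and 0 without any single library. Cdkn1c kept its call in 7 of 16 alternatives and lost it in 9, with its direction kept in all 16. Over all genes, 703 higher became 21 with no filter, 0 with the replicate block and 0 to 98 with 1 library left out (0 in both directions without any Col6a1+ library or without Col6a1- replicate 1). The 517 lower became 7 with no filter, 336 with a pseudocount of 0.1, 1006 with limma-voom, 969 with array weights, 0 with the replicate block, 871 with the block over genes with a mean of at least 10, and 0 to 166 with 1 library left out. Of other imprinted genes, the 6 higher became 3 with upper-quartile scaling, 0 with no filter, 2 with a pseudocount of 0.1, 0 with the replicate block and 0 to 1 with 1 library left out, and the 6 lower became 3 with at least 10 counts in every library, 0 with no filter, 3 with a pseudocount of 0.1, 0 with the replicate block and 0 with any library left out. Where no gene was called, 3555 to 5073 genes still had an unadjusted p under 0.05. Uncalled neighbours changed sign, with log2 fold changes of -0.36 to 0.64 for Usp29, -0.86 to 0.17 for Mkrn3 (0.0022 with array weights), -0.90 to 0.23 for Nap1l4 and -0.10 to 0.77 for Ube3a when 1 library was left out. A pseudocount of 0.1 also gave log2 fold changes of 6.44 for Rian, 6.62 for Mirg, -6.39 for Ascl2, -5.13 for Slc38a4 and -6.34 for Grb7, array weights gave -3.12 for Slc38a4 and -4.20 for Grb7, and Ascl2 was -4.81 with limma-voom and -4.77 without Col6a1+ replicate 2. The causes were not tested. Filters on a mean of 10 gave no value for Mest, Ndn and Zim1. With 3 pools a group, and counts under 10 for those genes, only large differences were detectable.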
